A study of Homo sapiens with 22 samples.

Results

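Transcripts of 9 complement components and regulators (C1R, C1S, SERPING1, C3, CFB, CFI, CD46, CD55 and CD59) were followed in RNA-seq of RPTEC, an hTERT-immortalized line of human renal proximal tubule epithelial cells. They are 9 of the 36859 genes measured. The members were chosen by name, with results of these same 22 libraries already known. No threshold on a measured value was part of the choice, and which values led to it is not recorded. Levels, changes and calls of the members therefore describe them and lend no independent support to a change of complement.

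The 22 libraries formed 11 groups of 2 replicates. Kept in 2% serum were WT cells, WT cells given 10 ng/ml TGF-β for 72 h after 24 h in the low serum, the SETD2 knockout lines KO1 and KO2, and a line labelled KO2 rescue. Kept in 10% serum were Rescue1 and Rescue2, which are KO cells with lentiviral FLAG-tagged SETD2 under blasticidin, and puromycin-selected WT cells carrying a lentivirus for eGFP, SOX2, OCT2 or PRRX1. All lines carry hTERT. KO1 and KO2 are each 1 clone with an error-prone repair in exon 3 of SETD2, a histone H3 lysine 36 methyltransferase, and each rescue line is 1 picked colony. Nothing in the labels says that replicates are separate cultures, so the p-values measure only the spread between these libraries, which may be technical.

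Complement is a set of plasma and membrane proteins that tag and lyse foreign or damaged cells. C1R and C1S are the serine proteases of the first component of the classical pathway, and SERPING1 (C1 inhibitor) inactivates both. C3 is the central component that all pathways cleave, and CFB supplies the protease of the alternative pathway, which amplifies that cleavage. CFI cleaves the activated fragments of C3 with CD46 as a cofactor, CD55 speeds the decay of the convertases that cleave C3, and CD59 blocks assembly of the membrane attack complex. The proximal tubule is known as a site of C3 synthesis in the kidney.

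Promoter sequence is shown for CFB and C1R, which were called higher in KO1 and whose windows held matches to motifs of interferon signalling or OCT factors. RefSeq windows (GRCh38.p14) were held for 6 of the 9 members and not for C3, C1S or SERPING1, and the 250 bases before each start were searched on both strands. The motifs were the gamma-activated site TTCNNNGAA (present in 6.57% of 35114 windows of all genes), the interferon-stimulated element GAAANNGAA (6.88%), the kappaB site GGNNTTTCC (5.48%), the C/EBP site TTGCNNAA (9.05%), the octamer ATGCAAAT (1.63%), ACAATG for SOX factors (9.29%), the homeodomain core TAATTA (4.35%) and the SMAD palindrome GTCTAGAC (0.182%). Capitals mark the motif matches, and each sequence reads 5′ to 3′ on the strand of its gene. In the outer C1R window the octamer overlapped a C/EBP match, and in CFB an interferon-stimulated element on the opposite strand lay 139 to 131 bases before the start.
CFB, chr6:31945845-31945974, plus strand, ending 121 bases before the start: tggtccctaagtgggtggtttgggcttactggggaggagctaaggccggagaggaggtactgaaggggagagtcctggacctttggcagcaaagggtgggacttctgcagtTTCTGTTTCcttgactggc
CFB gamma-activated site, chr6:31945993-31946021, plus strand: cgcttggatgTTCCGGGAAagtgatgtgg
C1R, chr12:7092541-7092695, minus strand, ending 96 bases before the outer start: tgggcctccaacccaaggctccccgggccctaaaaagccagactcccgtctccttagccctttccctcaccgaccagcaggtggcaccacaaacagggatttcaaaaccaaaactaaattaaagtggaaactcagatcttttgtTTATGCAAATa
C1R gamma-activated site of an inner start, chr12:7091961-7091989, minus strand: gccagtcctaTTCCTGGAAggggagggga
The windows of CFI, CD46 and CD55 held none of the 8 motifs, and CD59 held a gamma-activated site before its outer starts and a pair of C/EBP matches before an inner start. The C1R window of the inner start also held a C/EBP match. These are matches of letters and not measured binding. CFB and C1R were shown because they held matches, and whether the 11 windows of the members held more than the background shares was not tested.

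Each library held 11674491 to 16758645 normalized counts. Read numbers were not available, and the spacing of the lowest values gave an estimate of about 7600000 to 18600000 reads per library. Members with few counts are therefore imprecise. SETD2 had 1852 and 2061 normalized counts in WT, 1046 and 1130 in KO1 and 1050 and 1052 in KO2. It had 9764 to 10445 in the rescue clones, but 834 and 820 in the line labelled KO2 rescue, which goes against that label. Of 24 epithelial and proximal tubule markers, 13 to 16 reached 10 counts in both libraries of a group. Among the proximal tubule markers, LRP2, HNF4A, SLC22A6, SLC22A8 and SLC5A1 stayed at or under 3 counts in every library. Because the list also holds general epithelial genes such as KRT8 and EPCAM, the number reached does not by itself show proximal tubule identity. Of 14 leukocyte markers 1 or 2 reached 10 counts in a group, and 8 stayed at or under 3 counts, among them CD2, CD3E, MS4A1 and TYROBP. The 10 fibroblast markers summed to 12453 and 846 in WT, 47818 and 46408 in TGF-β-treated cells, 236668 and 223519 in KO1, 103695 and 100083 in KO2, 830 to 1536 in the rescue clones and 3686 to 6048 in the transduced lines. Most of that sum was COL1A1 in TGF-β-treated cells and DCN in the KO clones, and FAP stayed at or under 3 counts throughout. Its part in the results below was not tested, and in bulk RNA fewer cells of a type and less RNA per cell cannot be told apart.

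C3, CD55 and C1S were higher and CFI and SERPING1 lower in both SETD2 KO clones than in WT, while CD46 kept nearly the same level. In KO1 C1R and CFB were higher too. A gene was called when its adjusted p in limma's test was under 0.05 and its log2 change was over 1 in size. By that rule 5 members were called higher and 2 lower in KO1, where 12% of the 14585 genes tested were called higher and 13.1% lower. In KO2 3 members were called higher and 2 lower, against 9.02% and 7.29% of all genes tested. All 9 members passed the filter of 10 normalized counts in at least 2 libraries, but CFB did so only through the KO1 libraries, where it was high. Its calls are therefore values of a gene that had to differ, and the members called higher in KO1 were 4 without it.

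**Figure D1:**
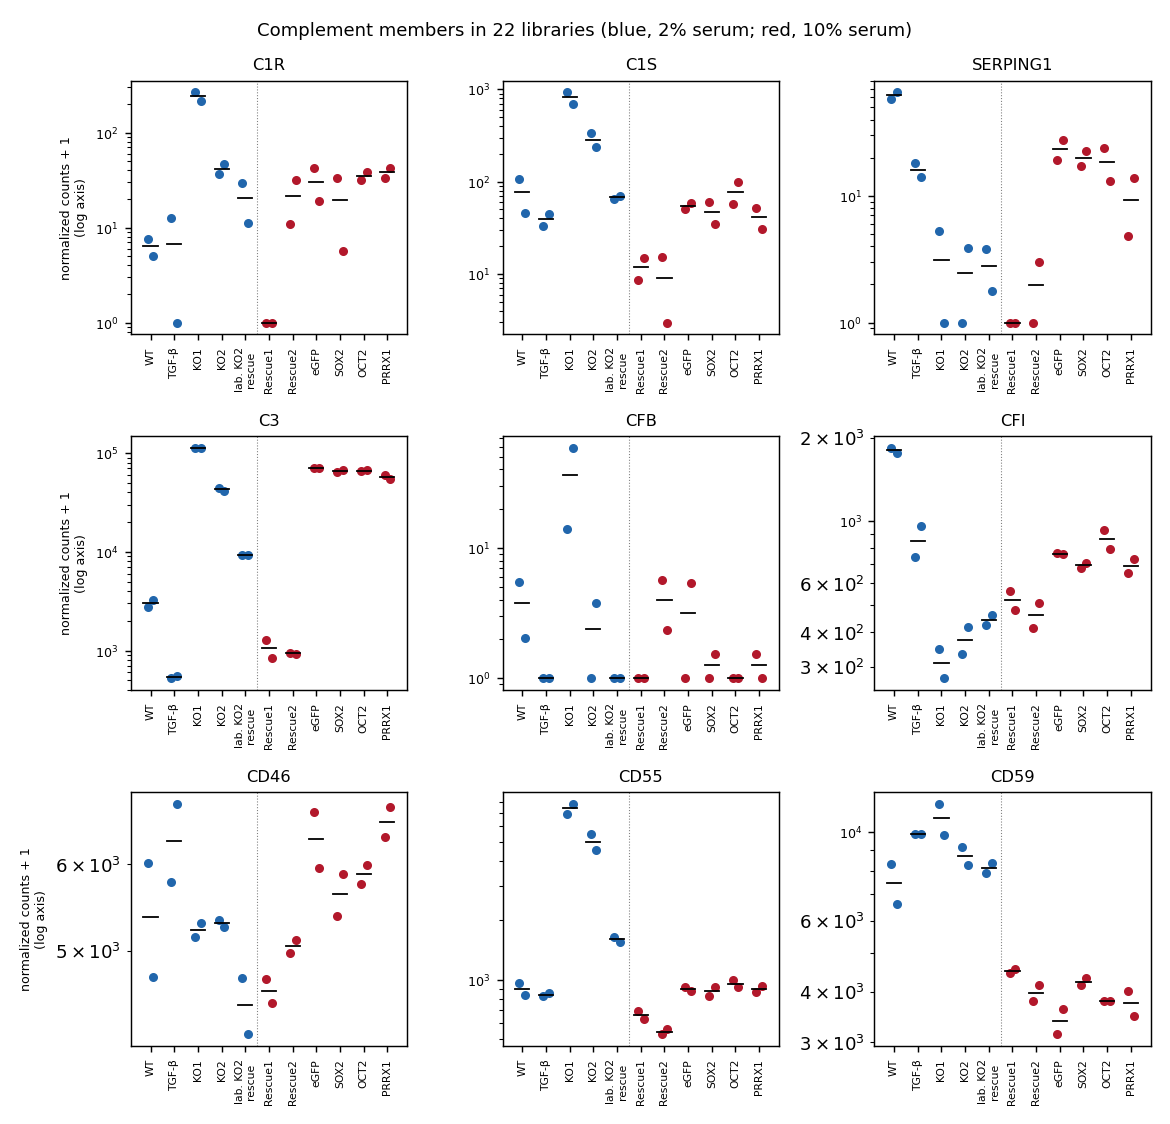
Normalized counts plus 1 (log axis) of each member by group. Points are libraries, horizontal lines are means of 2 libraries, blue groups were kept in 2% serum and red groups in 10% serum. C3 and CD55 sit high in both KO clones, C3, unlike CD55, is also high in the 4 transduced lines, and CD46 spans only 4191 to 6816.

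Of the classical pathway proteases, C1S (chromosome 12, 6988259 to 7071032, plus strand) had 106 and 45.1 normalized counts in WT, 932 and 697 in KO1 and 336 and 234 in KO2. All 4 KO libraries lay above both WT libraries. The log2 change was 3.52 (SE 0.65, adjusted p = 0.00047 in limma's test) in KO1 and 2.00 (SE 0.65, adjusted p = 0.0299) in KO2. The KO2 call rested on single libraries: without WT replicate 2 the change was 1.39 with an adjusted p of 0.233, and without KO2 replicate 1 or 2 the adjusted p was 0.16 or 0.0637.

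C1R (chromosome 12, 7080214 to 7092540, minus strand) lies 9181 bases from C1S on the other strand. It had 6.65 and 4.01 normalized counts in WT, 265 and 215 in KO1 and 35.3 and 45.6 in KO2. Again no KO library overlapped WT. The KO1 change was called at 5.27 (SE 1.03, adjusted p = 0.00081 in limma's test), and the KO2 change of 2.73 was not (SE 1.03, adjusted p = 0.0615). C1R shares 2954 bases of its gene with C1RL on the same strand, so its counts could hold reads of that gene. C1RL itself had 54 to 191 counts over all libraries and was called in none of the 12 comparisons.

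SERPING1 (chromosome 11, 57597387 to 57619171, plus strand), the inhibitor of both proteases, had the opposite pattern at a low level. WT libraries had 57.1 and 64.9 normalized counts, KO1 had 4.27 and 0, and KO2 had 0 and 2.89. All 4 KO libraries lay below both WT libraries. No fold is given for so few counts. Both changes were called (adjusted p = 0.000591 in KO1 and 0.000577 in KO2, limma). In a fit of the KO1 and WT libraries alone the KO1 change was not called (limma, adjusted p = 0.0648). TGF-β-treated cells had 17.1 and 13.0 counts, below both WT libraries, and that change was not called (adjusted p = 0.167).

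C3 (chromosome 19, 6677704 to 6730562, minus strand) was, per kilobase of transcript, the most abundant member in the KO clones. Its normalized counts were 2747 and 3286 in WT, 113247 and 113316 in KO1, 44554 and 41316 in KO2, and 521 and 554 in TGF-β-treated cells. No library of these groups overlapped another group. C3 was 37.7-fold higher in KO1 (log2 change 5.24, SE 0.13, adjusted p = 3.57e-13 in limma's test) and 14.3-fold higher in KO2 (3.84, SE 0.13, adjusted p = 1.74e-11) than in WT. It was 5.59-fold lower with TGF-β (-2.48, SE 0.13, adjusted p = 1.45e-08). Per kilobase of transcript, C3 made up 12.8% of the summed level of the 9 members in WT, 77.1% in KO1, 62.2% in KO2 and 2.52% in TGF-β-treated cells.

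CFB (chromosome 6, 31945650 to 31952086, plus strand) had at most 4.66 normalized counts in any library outside KO1. It had 4.48 and 1.06 normalized counts in WT, 12.9 and 57.6 in KO1, 0 and 2.8 in KO2 and 0 in both TGF-β libraries. CFB entered the test only through KO1, so the call of its KO1 change (log2 3.09, SE 0.94, adjusted p = 0.0172 in limma's test) is a description. It was not called without KO1 replicate 2 (2.05, adjusted p = 0.168) or without WT replicate 2 (2.38, adjusted p = 0.133). CFB lies in the major histocompatibility complex, for which the annotation the authors used also holds alternate copies, and 2981 genes of the table had no name here, so whether reads of CFB went to such a copy was not tested.

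CFI (chromosome 4, 109731008 to 109802150, minus strand), which inactivates cleaved C3, had 1836 and 1764 normalized counts in WT, more than in any other library. It had 346 and 272 counts in KO1, 332 and 417 in KO2 and 744 and 958 with TGF-β. CFI fell by 2.55 on the log2 scale in KO1 (SE 0.16, adjusted p = 9.68e-09 in limma's test), by 2.27 in KO2 (SE 0.16, adjusted p = 6.5e-08) and by 1.09 with TGF-β (SE 0.16, adjusted p = 0.000255). Without TGF-β replicate 1 the last change was -0.91 and was no longer over 1 in size.

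Among the membrane regulators, CD55 (chromosome 1, 207321519 to 207386804, plus strand) had 960 and 837 normalized counts in WT, 6970 and 7836 in KO1 and 5486 and 4538 in KO2. It was 8.24-fold higher in KO1 (log2 change 3.04, SE 0.11, adjusted p = 1.09e-11 in limma's test) and 5.56-fold higher in KO2 (2.48, SE 0.11, adjusted p = 2.26e-10). With TGF-β its counts of 823 and 849 overlapped WT. CD46, which lies 365232 bases away on the same chromosome (207752037 to 207795513, plus strand), ranged from 4191 to 6816 counts over all 22 libraries. Its log2 change lay between -0.39 and 0.24 in the 12 comparisons and was called in none, with a lowest adjusted p of 0.0044.

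CD59 (chromosome 11, 33703010 to 33736479, minus strand) had 8306 and 6624 normalized counts in WT, 11735 and 9822 in KO1, 9173 and 8260 in KO2 and 9875 and 9846 with TGF-β. KO1 and TGF-β libraries lay above both WT libraries, and 1 KO2 library lay between them. The changes of 0.53 in KO1 (adjusted p = 0.00137, limma) and 0.41 with TGF-β (adjusted p = 0.0185) were under the size of 1 and so not called.

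TGF-β, a growth factor used here to induce a mesenchymal change, left most members uncalled. With TGF-β 0 members were called higher and 2, C3 and CFI, were called lower, where 3.58% of genes tested were called higher and 4.26% lower. KO1 and KO2 were then set against TGF-β directly, taking the mean of both clones. Here 5 members (C3, C1R, C1S, CD55 and CFB) were called higher and 2 (CFI and SERPING1) lower, against 10.3% and 9.83% of all genes tested. CFB passed the filter only through KO1, and its KO libraries overlapped those with TGF-β, so its call is a description. The largest of these differences was C3, 129.6-fold higher in KO than in TGF-β-treated cells (log2 7.02, SE 0.11, adjusted p = 2.52e-15 in limma's test). The CFB call was lost without either TGF-β library (adjusted p = 0.0678 and 0.0675) and the SERPING1 call without TGF-β replicate 1 (0.0705). The comparisons with WT share the WT libraries, and their values stand side by side here without a test of overlap.

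Between the clones, C3 was 2.64-fold higher in KO1 than in KO2 (log2 1.40, SE 0.13, adjusted p = 5.22e-06 in limma's test), and CFB was called higher too (adjusted p = 0.0117), on the 12.9 and 57.6 counts given above. Without KO1 replicate 2 or without KO2 replicate 1 the CFB call was lost, with adjusted p-values of 0.113 and 0.116. These 2 members were called higher and 0 lower, against 2.48% and 4.49% of genes tested. Because CFB passed the filter only through KO1, its call here is a description. C1R and C1S were higher in both KO1 libraries than in both KO2 libraries, but neither difference was called (adjusted p = 0.114 and 0.13). CD55 differed by 0.57 (adjusted p = 0.00196), under the size of 1.

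**Figure D2:**
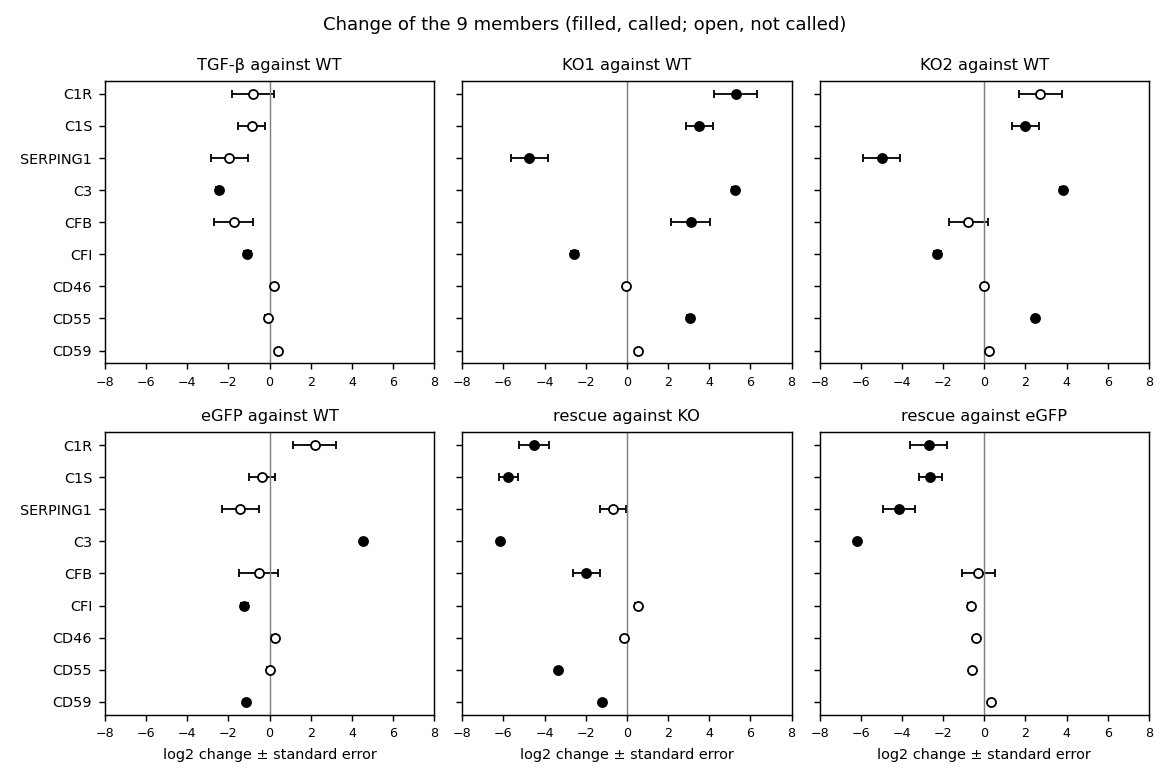
Log2 change of each member with its standard error in 6 comparisons (x axis, log2 scale). Filled points were called and open points were not. In both KO panels C3 and CD55 lie to the right and CFI and SERPING1 to the left of 0. In the panel of rescue against KO the filled points (C3, C1R, C1S, CD55, CFB and CD59) lie to the left.

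Rescue1 and Rescue2 were compared with both KO clones to see which members moved when SETD2 was supplied. C3 had 1277 and 845 normalized counts in Rescue1 and 944 and 923 in Rescue2, below every KO and WT library. CD55 had 690 and 633 in Rescue1 and 527 and 559 in Rescue2, also below every WT library. C1S had 7.65 and 14.1 in Rescue1 and 14.1 and 1.98 in Rescue2. C1R had 0 in both Rescue1 libraries and 9.89 and 30.7 in Rescue2. The 4 rescue libraries thus lay under all KO libraries for each of these genes.

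Against the mean of the KO clones, 6 members were called lower with rescue and 0 higher, where 11.9% of genes tested were called lower and 11.3% higher. C3 fell by 6.14 on the log2 scale (SE 0.09, adjusted p = 9.34e-16 in limma's test), C1S fell by 5.77 (SE 0.46) and CD55 fell by 3.34 (SE 0.07). The fitted C1R change was -4.53 (SE 0.73), which measures no size because both Rescue1 libraries were at 0. With Rescue2 alone it was -2.42 (SE 0.89, adjusted p = 0.0449, limma). CD59, at 3791 to 4558 counts in the rescue clones, fell by 1.19 (SE 0.08, adjusted p = 1.13e-08). Under equal library totals the CD59 change was -0.80, and on the deposited log2 scale it was -0.74, both under the size of 1 and not called. The CFB call (-1.97, adjusted p = 0.0257) rested on KO1, the group that let CFB pass the filter: it was lost against KO2 alone, and without KO1 replicate 2 the change was -1.45 with an adjusted p of 0.109. Leaving out KO2 replicate 2, either Rescue1 library or Rescue2 replicate 2 also ended that call. Against KO2 alone, 5 members were called lower and 0 higher, where 9.65% of genes tested were called lower and 7.84% higher. The log2 changes against KO2 were -5.44 for C3, -5.01 for C1S and -3.06 for CD55. For C1R the fitted value was -3.25, again no size with Rescue1 at 0. CFI and SERPING1, lower in KO, stayed below both WT libraries. CFI had 412 to 560 counts in the rescue clones, up by 0.53 against KO (adjusted p = 0.00166) and not called, and SERPING1 had 0 to 1.98.

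The rescue clones were in 10% serum and the KO clones in 2%, so rescue, serum and lentiviral selection cannot be told apart in that comparison. The eGFP line shares the serum and transduction with the rescue clones, though not the selecting drug. In eGFP libraries C3 had 70209 and 71378 normalized counts, CFI 766 and 765, CD55 916 and 871, CD59 3139 and 3628, C1S 49.3 and 57.4, C1R 41.0 and 17.8, and SERPING1 18.2 and 26.7. C3 in eGFP cells thus lay between KO1 and KO2, while CD55 lay at the level of WT. Against eGFP, 4 members were called lower in the rescue clones (C3, C1R, C1S and SERPING1) and 0 higher, against 6.66% lower and 6.47% higher of genes tested. C3 was 71.8-fold lower (log2 -6.17, SE 0.11, adjusted p = 9.54e-14 in limma's test). C1S was lower by 2.63 (SE 0.56, adjusted p = 0.00233). The C1R call (adjusted p = 0.0332) was lost when either eGFP library, either Rescue1 library or Rescue2 replicate 1 was left out, with adjusted p-values up to 0.254.

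Transduced WT cells in 10% serum and WT cells in 2% serum have the same SETD2 genotype. Of the members, 1 was called higher in eGFP than in WT (C3, 23.6-fold, log2 4.56, SE 0.13, adjusted p = 6.67e-12 in limma's test) and 2 were called lower, CFI (-1.23, adjusted p = 5.2e-05) and CD59 (-1.14, adjusted p = 3.08e-06). Of all genes tested 6.49% were called higher and 6.24% lower. Without WT replicate 1 the CD59 change was -0.97, under the size of 1. CD55 did not move with C3 here: eGFP libraries had 916 and 871 counts and WT libraries 960 and 837 (log2 -0.01, SE 0.11, adjusted p = 0.991). Serum, transduction and selection cannot be told apart in this comparison.

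SOX2, OCT2 and PRRX1, transcription factors named by the study as candidates downstream of SETD2, were each expressed in WT cells and compared with eGFP. PRRX1 had 395 and 404 normalized counts in its line and 0 in both eGFP libraries, and was called higher (adjusted p = 0.000148 in limma's test). POU2F2, which encodes OCT2, had 1251 and 1121 in its line against 279 and 357. It was 3.74-fold higher there but was not called (adjusted p = 0.42, limma). SOX2 was not among the genes with values here, so its expression in its line could not be checked. No member was called in any of the 3 lines by limma's test (0 higher and 0 lower in each). At an unadjusted p under 0.05 there were 1 member with SOX2, 0 with OCT2 and 1 with PRRX1. With POU2F2 itself not called in its line, the absence of calls does not show that members with few counts were unchanged. Few genes were called at all: 0.0137% higher and 0.00686% lower with SOX2, 0.0274% and 0.00686% with OCT2, and 0.0343% and 0.00686% with PRRX1. C3 had 65080 and 66981 counts with SOX2, 65288 and 67488 with OCT2 and 60041 and 54675 with PRRX1. All members' log2 changes lay between -1.49 (SERPING1 with PRRX1) and 0.48 (C1S with OCT2). C1R, whose outer window holds the octamer, had 30.7 and 37.6 with OCT2 against 41.0 and 17.8 in eGFP, which overlap. CD55 stayed between 825 and 990 counts in the 4 transduced lines, below every KO library.

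The line labelled KO2 rescue was kept in the same serum as KO2. It had 9245 and 9366 normalized counts of C3, 1649 and 1548 of CD55, 64.6 and 69.7 of C1S, 28.5 and 10.1 of C1R and 424 and 460 of CFI. C3 and CD55 lay between KO2 and WT with no overlap. Both were called lower than in KO2, C3 by 2.20 (SE 0.13, adjusted p = 4.42e-08 in limma's test) and CD55 by 1.64 (SE 0.11, adjusted p = 8.54e-08), and 0 members were called higher, against 2.52% lower and 1.65% higher of genes tested. C1S was lower in both libraries by 2.05 and was not called (adjusted p = 0.0596). CD59, at 7890 and 8334 counts, had a change of -0.10 (adjusted p = 0.688).

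**Figure D3:**
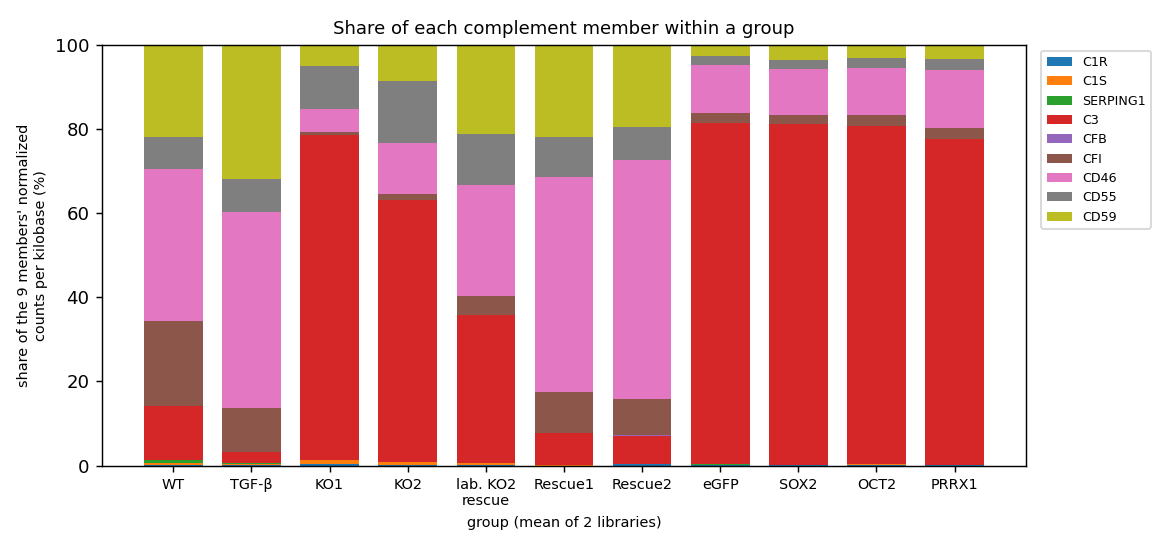
Share of each member (y axis, percent) in the summed normalized counts per kilobase of the 9 members, from the mean of 2 libraries per group. C3 takes 77.1% in KO1 and 81.2% in eGFP but 12.8% in WT and 2.52% with TGF-β, where CD46 and CD59 take most of the rest.

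Set per kilobase of transcript, the order of the members changed with the group. Lengths were those of each gene's canonical transcript, 3320 bases for CD46 and 7563 for CD59, and the order depends on that choice. By counts alone CD59 (mean 7465) exceeded CD46 (mean 5371) in WT. In WT the leading members were CD46 (35.9% of the members' sum), CD59 (21.9%), CFI (20.2%) and C3 (12.8%), and in Rescue1 CD46 took 51.1% and C3 7.50%. The decay-accelerating CD55 took 7.70% in WT, 10.2% in KO1 and 14.7% in KO2, but 2.07% in eGFP, where C3 was also high. CFI took 20.2% in WT and 0.556% in KO1. C1R, C1S, CFB and SERPING1 together stayed a small part in every group, the highest being C1S at 1.08% in KO1.

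Over the 11 groups C3 was highest in KO1, then in eGFP, OCT2, SOX2, PRRX1, KO2, the line labelled KO2 rescue, WT, Rescue1, Rescue2 and TGF-β. Of these neighbours only OCT2 and SOX2, and Rescue1 and Rescue2, overlapped in their libraries. CD55 was highest in KO1, KO2 and the line labelled KO2 rescue, each apart from the next, and the 4 transduced lines, WT and TGF-β followed with overlap between all neighbours. CFI was highest in WT, and KO2 and KO1, which overlapped, were lowest. Every CD59 library in 2% serum (lowest 6624 counts) lay above every one in 10% serum (highest 4558), and since all lines in 10% serum were also transduced and drug-selected, serum, transduction and selection cannot be told apart.

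The genes whose group means followed a member most closely were found by Pearson's r over the 11 group means of 9428 genes, which share libraries and serum. For C3 they were FCAMR (r = 0.99), IFNGR1, a receptor chain for interferon gamma (0.981), and SAA2, an acute phase protein (0.976). SAA2 had 396 and 449 normalized counts in WT, 5126 and 4202 in KO1, 4142 and 4250 in KO2, 131 and 107 with TGF-β and 3755 and 3409 in eGFP. For CD55 the nearest were DAB1 (0.985), SUSD1 (0.984) and SCAMP2 (0.979), for CFI LRRC8D (0.967) and for CD59 GALT (0.986). For C1S it was OTUD5 (0.969), for SERPING1 RNF19B (0.966), for CD46 OGT (0.934), for CFB OAS1 (0.915) and for C1R LYST (0.909). The mean of CFB was 35.3 normalized counts in KO1, and its next highest group mean was 3.00, in Rescue2. Its r therefore rests mostly on KO1 and on differences between values near 0. Whether CFB and OAS1 share regulation was not tested.

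Acute phase and NF-κB inducible genes, a list written from general knowledge, were described beside C3, which belongs to the same response in liver. Of 21 tested, 17 were called higher in KO1 (median log2 change 3.08), 15 in KO2 (1.76) and 15 in eGFP against WT (2.32), with 0, 0 and 1 called lower. The median over all genes tested was 0 in each of these comparisons. Of 26 interferon-stimulated genes tested, 12 were called higher and 1 lower in KO1, 5 and 2 in KO2, and 1 and 5 in eGFP against WT. Of all genes tested, 12% were called higher and 13.1% lower in KO1, 9.02% and 7.29% in KO2, and 6.49% and 6.24% in eGFP against WT. As percentages of the 26 the interferon counts were 46.2% and 3.85% in KO1, 19.2% and 7.69% in KO2, and 3.85% and 19.2% in eGFP. With TGF-β 3 acute phase genes were called higher and 5 lower, where 3.58% and 4.26% of all genes tested were called.

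Other genes of the complement system were taken from a list of 50, of which 48 were in the table and 18 passed the filter. In KO1 4 were called higher and 3 lower, and in KO2 5 higher and 3 lower, with median log2 changes of 0.00 and -0.11. These were 22.2% higher and 16.7% lower in KO1 and 27.8% and 16.7% in KO2, against 12% and 13.1% and 9.02% and 7.29% of all genes tested.

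C8A, a subunit of the membrane attack complex, had 55.6 and 89.8 normalized counts in KO1, 30.6 and 23.4 in KO2 and 0 in the WT and rescue libraries. CSMD2, a large membrane protein with complement control domains, had 215 and 121 in KO1, 171 and 170 in KO2 and 0 in WT. Its mean was 2.46 in Rescue1, 49.0 in Rescue2 and 106 in the line labelled KO2 rescue. Rescue2 was not called lower than the KO clones (adjusted p = 0.151, limma). C8A and CSMD2 were both called in each clone, C8A with adjusted p-values of 3.95e-06 and 7.3e-05 and CSMD2 with 7.69e-05 and 0.000103 in limma's test. They were named for their large called KO changes, and C8A passed the filter only through the KO libraries, where it was high. These calls are therefore descriptions. Called lower in both clones were C1QBP, a binding protein of C1q, C3AR1, the receptor for the C3 anaphylatoxin, and C5. The fall of C5 was not particular to the clones, since it was called lower with TGF-β too (log2 -1.62, SE 0.49, adjusted p = 0.0325, limma). Mean C5 counts were 108 in WT, 23.6 in KO1, 36.2 in KO2, 31.3 with TGF-β and 31.3 in the line labelled KO2 rescue. C3AR1 had 57.5 and 60.7 counts in WT, 4.71 and 12.8 in KO1 and 17.5 and 14.3 in KO2, while the rescue clones had 82.7 to 103. CLU, clusterin, was called higher with TGF-β (log2 2.84, SE 0.50, adjusted p = 0.000978) at 17736 and 19240 counts, but its WT libraries of 6153 and 1085 differed from each other by a wide margin. C2, the classical pathway counterpart of CFB, had at most 5.82 counts in any library.

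**Figure D4:**
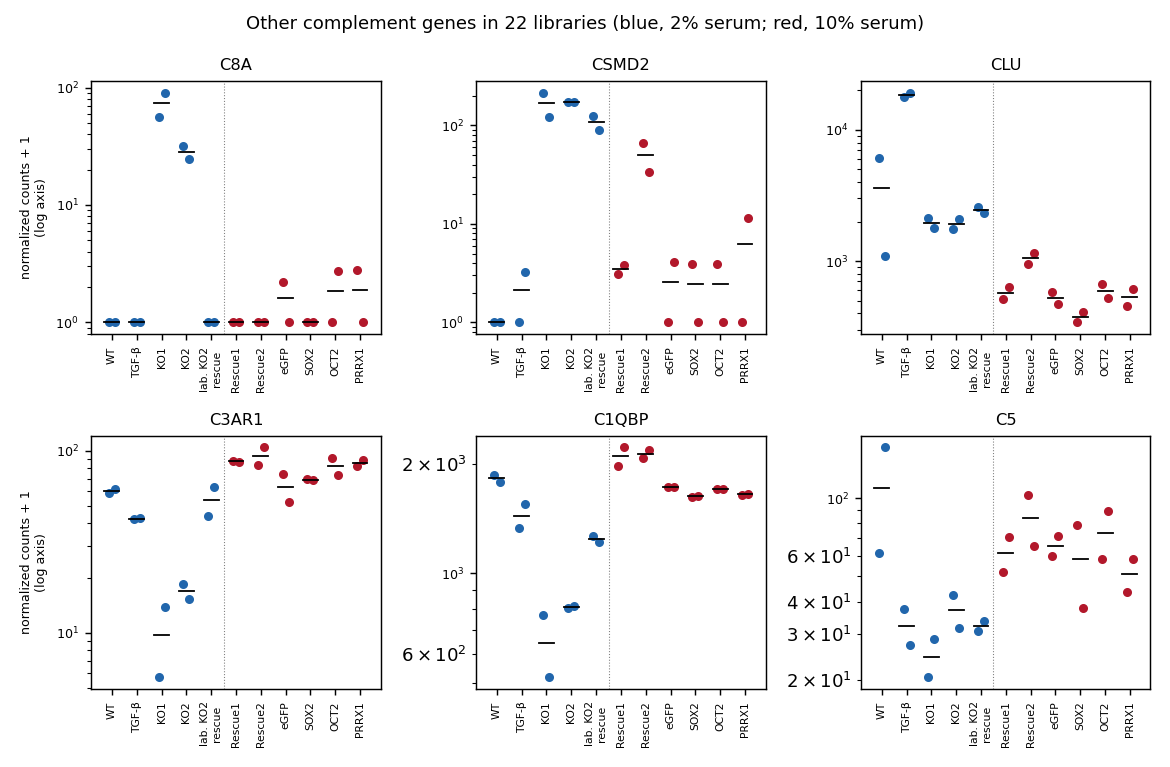
Normalized counts plus 1 (log axis) of 6 complement genes outside the 9 members, by group. Points are libraries, horizontal lines are means of 2 libraries, blue groups were kept in 2% serum and red groups in 10% serum. C8A and CSMD2 are high in both KO clones, and C3AR1, C1QBP and C5 are low there, C5 also with TGF-β and in the line labelled KO2 rescue.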

How the data were processed

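The authors sequenced stranded mRNA libraries, quantified reads with Salmon 1.9.0 on Ensembl release 94 cDNA of GRCh38 (hg38) and used DESeq2 1.26.0. They deposited log2 values of 36859 genes. How these were normalized or transformed is not given in the sources used here. All 22 libraries share the lowest log2 value (11.32), and the values have the form of variance-stabilized counts, which was inverted to normalized counts (0 at the lowest value). Whole reads were not recovered.

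The 14585 genes that reached 10 normalized counts in 2 or more libraries entered a test on log2(normalized count + 1) with limma 3.58.1 in R 4.3.3 (variance trend, 22 libraries in 1 fit, no covariate), with Benjamini-Hochberg adjustment over all genes of each of 12 comparisons. No linear fold was given against libraries at or under 3 counts, and a fitted log2 difference there depends on the added count of 1 and measures no size. On simulated data for 14585 genes in the KO1 comparison, 200 of 200 genes changed by 2 on the log2 scale were called, and 5 unchanged genes. The changed genes were drawn from those with a mean of at least 50 counts, and all genes were given the same dispersion. The simulation therefore says nothing about recovery of members with fewer or more variable counts. Positions and lengths (of the canonical transcript of each gene) are from GENCODE release 44 on GRCh38, which named 33878 genes. Python 3.11.15, pandas 2.3.3 and matplotlib 3.10.9 were used. Members and lists were chosen with earlier results of these data known. Named besides the members were C2, CLU, C1RL, those of the 3 complement genes with the largest called KO change and a group mean of at least 50 counts (1 gene of this rule is not reported here), and the 3 genes most like each member. C1QBP, C3AR1, C5 and SAA2 values were named after they were seen. Alternatives were pseudocounts of 0.5 and 5, other filters on low counts, quantile or same-total scaling, the log2 values as deposited, a fit of the compared groups alone, a replicate block, other choices of clones and leaving out each library.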

Additional observations from a re-analysis of the deposited data

Results flagged for a closer look

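C3 and CFB were marked because their change from WT differed between the KO clones by limma's test of that difference. C3 was higher in KO1 than in KO2 by 1.40 on the log2 scale. The fitted log2 difference of CFB was 3.87, which measures no size because the KO2 libraries were at the floor. C3 was higher in both KO1 libraries than in both KO2 libraries. The CFB difference rests on 12.9 and 57.6 normalized counts in KO1 against 0 and 2.8 in KO2 and depends on the added count of 1. CFB was also tested only because the KO1 libraries, where it was high, passed the filter on low counts, so its call is no support for a difference between the clones.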

How the results depend on the processing

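With 2 libraries in each group, members with few counts (CFB, C1R, C1S and SERPING1) are measured imprecisely. Of 847 alternative values for the 59 changes of single members past the fold or the adjusted p, 771 kept direction and side of the threshold, 66 were no longer called, 9 became called and 1 turned direction. That was C1R with SOX2 against eGFP, uncalled, from -2.30 to 0.23 as single libraries were left out.

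On the deposited log2 scale, which compresses low values, members called numbered 0 with TGF-β, 2 in KO1, 2 in KO2, 1 between the clones, 2 in KO against TGF-β, 2 in rescue against KO, 1 in rescue against eGFP, 1 in the line labelled KO2 rescue and 1 in eGFP against WT. With a mean of at least 50 counts, which drops members, they were 4 in KO1, 1 between the clones, 4 in KO against TGF-β and 2 in rescue against eGFP. Fitting only the libraries compared left 0 with TGF-β and 0 between the clones, where 0 and 1 of all genes were called. Elsewhere that setting ended the SERPING1 call in KO1 (limma, adjusted p = 0.0648) and in KO against TGF-β (0.0859). It also ended the C1S calls in KO2 (0.0948) and in rescue against eGFP (0.0749), and the CD59 call in eGFP against WT (0.0531). CFB was no longer called in KO1, KO against TGF-β or rescue against KO. Newly called were C1R in KO2 (0.0445) and C1S in the line labelled KO2 rescue (0.0418). Leaving out single libraries gave 1 to 2 with TGF-β and 1 to 2 between the clones. With every library at the same total, the median of all genes shifted by -0.40 in KO1, -0.21 in KO2 and between the clones, -0.20 with TGF-β and 0.38 in rescue against KO. Calls higher and lower were then 1150 and 3008 in KO1 (1744 and 1909 without it), 1069 and 1521 in KO2 (1315 and 1063), 357 and 937 with TGF-β (522 and 621), 257 and 890 between the clones (361 and 655), and 2801 and 1150 in rescue against KO (1652 and 1740). Of the members only CD59 lost a call by it, in rescue against KO (-0.80), and CD46 there had a change of 0.27 in place of -0.13.

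Replicate numbers did not pair the libraries: deviations of same-numbered libraries correlated at -0.08 to 0.05 over 55 pairs of groups. With the replicate block, members called were 7 in KO1, 5 in KO2, 2 with TGF-β and 6 in rescue against KO, the numbers found without it, and no count of members changed in the other 8 comparisons.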
